A study of Ovis aries with 60 samples.

Results

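The cytosines described here were the 232168 CG cytosines, each taken by chromosome, position and strand, that were listed both for the sperm of 10 F0 rams and for 10 pools of sperm from their F1 sons. They made up 74.1% of the 313527 CG cytosines listed for the rams and 78.8% of the 294661 listed for the pools, out of 409714 listed for any of the 3 generations of sheep. The F0 rams were Polypay twins, 1 twin of each pair on each diet. The 5 treatment rams (numbers 3, 5, 9, 11 and 23) received a control diet with encapsulated methionine (0.22% addition, 1.5 g) between weaning and puberty, and the 5 control rams (4, 6, 10, 12 and 24) received the control diet alone. Each ram was bred to untreated Polypay ewes. The F1 sons were fed the control diet, and their sperm was sequenced as 5 treatment and 5 control pools that carry the numbers of the rams. The labels do not say which ram numbers are twins or that a pool held only sons of the ram whose number it carries. Every ram was sequenced on its own and every F1 sample was a pool, so that generation and pooling cannot be told apart in any difference below. Per the study's methods the 10 pools together held sperm of more animals than the 10 rams.

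In mammals, methylation of a cytosine followed by a guanine is placed by DNA methyltransferases and copied at cell division. Most of it is erased and written again both in the germ cells of each generation and in the early embryo, and mature sperm ends with a highly methylated genome in which mainly CG-rich promoters and regulatory elements stay unmethylated. In a single sperm a cytosine is either methylated or not. A ram carries 2 copies of each autosomal cytosine and a son receives 1 of them from his sire, while a son's X chromosome comes from his dam. Bisulfite sequencing reads an unmethylated cytosine as T, and reads a C-to-T sequence variant the same way. The tables hold no genotypes, so that a difference in methylation and a difference in sequence cannot be told apart at any cytosine.

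The level of a cytosine is the methylated percent of its reads, and differences of levels are given in points. Reads on the shared cytosines numbered 5816730 to 9159656 per ram and 4952060 to 9072826 per pool, with a median coverage of 20 to 35 and 17 to 34 reads. Values resting on fewer than 20 reads made up 25.7% of the ram values and 26.2% of the pool values. Autosomes held 222034 of the cytosines (95.6%), the X chromosome 1898, and 248 unplaced scaffolds 8234. A check of imprinted genes as markers of sperm, and a placing of the cytosines in exons, introns or promoters, were not analysed here, because no annotation of this genome build was at hand. As a check on bisulfite conversion, 0.402% ± 0.0114 (SD, n = 10) of reads were methylated at 1645290 CHG cytosines (H being A, C or T) shared by the same samples in the rams, and 0.394% ± 0.00611 (n = 10) in the pools (permutation p = 0.0917). Ram 23 stood apart from the other rams in several measures, and a part of the results is given with and without it.

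The mean CG level of sperm did not differ detectably between sires and their sons' pools. It lay between 72.0% and 74.8% in the rams, with a median of 73.7%, and between 71.7% and 75.3% in the pools, with a median of 73.5%, so that the ranges overlapped almost fully. The means were 73.4% ± 0.966 (SD, n = 10) and 73.5% ± 1.20 (n = 10), and the difference of 0.183 points was smaller than either SD (two-sided permutation test over samples, p = 0.709). In the treatment line the difference was 0.279 points (exact permutation p = 0.595), and in the control line 0.0858 points (exact p = 0.929), each with 5 rams and 5 pools. Across the 10 numbers, rams with a higher mean level had pools with a higher mean level (Pearson r = 0.778, permutation p = 0.0102, Spearman rho = 0.770, p = 0.0135). Without the 2 rams farthest from the median r was 0.819. Adjusted over the 3 relations of this kind the Pearson p was 0.0152, and a separate r within each line of 5 was not computed. The p-values of the 3 relations take the 10 numbers as independent. Because the rams were twins, the numbers are not, and these p-values are a description. The third relation, that of the share at 10 methylated of 10 drawn reads, had r = 0.641 (permutation p = 0.0338, also after adjustment) and rho = 0.624 (p = 0.0583), and r fell to 0.339 without the 2 farthest rams, so that it rests on those.

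What differed was the share of cytosines with no methylated read. To compare samples of unequal depth, each cytosine was reduced to the shares expected in a draw of 10 of its reads. In the rams, 4.33% to 5.39% of cytosines (median 4.98%) had 0 methylated of 10 reads. In the pools, the share was 2.45% to 3.65% (median 2.95%). All pools lay below all rams. The means were 4.95% ± 0.375 (SD, n = 10) and 2.97% ± 0.404 (n = 10), a ratio of 0.599, with a lower share in the pool for 10 of 10 numbers (permutation p = 2e-05, the smallest that 100000 resamples can give, and 0.00014 adjusted over 7 measures). In the treatment line the share went from 4.83% ± 0.353 in the rams to 2.83% ± 0.320 in the pools, and in the control line from 5.06% ± 0.399 to 3.10% ± 0.468. The exact permutation p was 0.00794 in each line, which is the smallest that 5 rams against 5 pools allow, and the difference between the lines had an exact p of 0.683. Counted on the reads as deposited, 3.805% ± 0.133 of cytosines stood at 0% in a ram and 1.73% ± 0.418 in a pool (n = 10 each, permutation p = 2e-05). Rams with a high share at 0 of 10 reads also had pools with a high share (Pearson r = 0.808 over 10 pairs, permutation p = 0.0031, Spearman rho = 0.842, p = 0.004, r = 0.790 without the 2 farthest rams, adjusted Pearson p = 0.0093). The 10 pairs include twin rams and are not independent, so that these p-values are a description as well.

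At the methylated end the difference did not pass the test. The share at 10 methylated of 10 reads was 22.2% to 39.4% (median 34.2%) in the rams and 26.4% to 37.4% (median 30.7%) in the pools, a difference of -2.18 points (permutation p = 0.270, adjusted p = 0.314). Without ram 23, which had the lowest share, the difference was -3.43 points (permutation p = 0.0413). Between the extremes, the outcome depended on the class and the measure. The share at 1 to 3 reads was 10.3% ± 1.35 in the rams and 11.4% ± 0.991 in the pools, which passed the unadjusted test only (permutation p = 0.0469, adjusted p = 0.109), and it was higher in the pool for 9 of 10 numbers. With the number as a block it passed (exact sign-flip test over the 10 pairs, p = 0.00391, adjusted p = 0.00911 over 7 measures). Sign-flip tests over numbers, here and below, take the 10 numbers as independent, although the rams were twins. The share at 7 to 9 reads was 35.4% ± 5.10 in the rams and 37.6% ± 2.98 in the pools, and lower in the pool for 2 of 10 numbers. It did not pass without the block (permutation p = 0.264, adjusted p = 0.314) or with it (exact sign-flip p = 0.0898, adjusted p = 0.123). In the treatment line this difference was 2.09 points with ram 23 (exact permutation p = 0.5) and 4.43 points without it (exact permutation p = 0.0794). The share at 4 to 6 reads was 15.9% ± 1.38 in the rams and 16.8% ± 1.02 in the pools (permutation p = 0.119, adjusted p = 0.209). With the number as a block this difference passed the unadjusted test only (exact sign-flip p = 0.0293, adjusted p = 0.0513), and it passed unadjusted without ram 23, at 1.27 points (permutation p = 0.00706). On the levels as deposited, without drawing 10 reads, the share between 40% and 60% was 12.178% in the rams and 12.217% in the pools, a difference of 0.0394 points (permutation p = 0.923), and the pool was lower for 7 of 10 numbers.

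**Figure D1:**
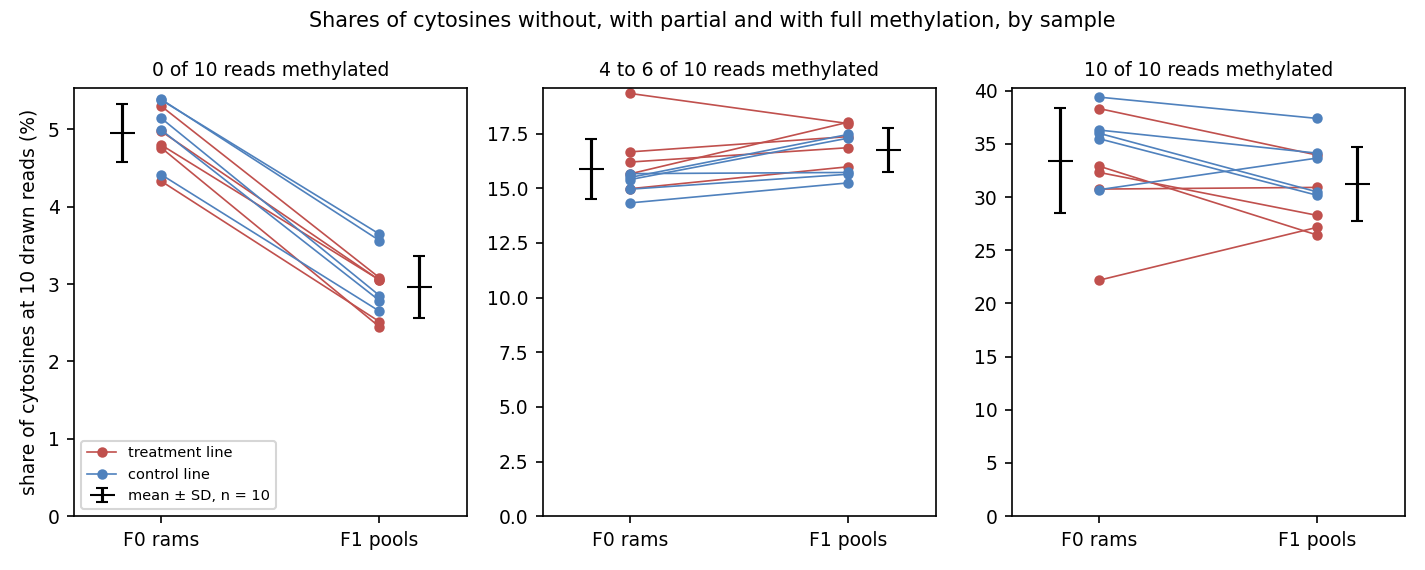
Share of the shared CG cytosines (y axis, percent) expected at no methylated read, at 4 to 6 and at all of 10 drawn reads, in the F0 rams and the F1 pools. Each line joins the ram and the pool of 1 number, colours mark the lines, and bars give the mean ± SD (n = 10). At no methylated read all pools (2.45% to 3.65%) lie below all rams (4.33% to 5.39%), while the groups overlap in the other 2 panels.

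Among the least methylated cytosines, a small part of the whole, the mean level was higher in the pools. How much of the loss at the unmethylated end lay at these cytosines was not computed. With the cytosines sorted by their mean level over all 20 samples, the 4493 under 10% averaged 3.45% ± 0.434 in the rams and 5.10% ± 0.580 in the pools (SD, n = 10 each). The pool was higher for 10 of 10 numbers, and the difference of 1.65 points passed the test (permutation p = 2e-05, 0.0002 adjusted over 10 level classes). The sort used the values of both groups, so that it takes part in the sign of the differences by class. The 7010 cytosines of 10% to 20% differed by 1.97 points, higher in 9 of 10 pools, without passing (p = 0.0652, adjusted p = 0.326). The remaining 8 classes differed by -0.632 to 1.87 points, with adjusted p of 0.7104 or more. The pool was higher for 8 of 10 numbers in each class from 20% to 50%, and for 2 to 6 of 10 in the classes above. These tests ignore the pairing by number, and the classes were not tested with the number as a block. In the highest class, the 102763 cytosines of 90% to 100%, the means were 94.9% and 94.8%. At CHG cytosines, which are almost free of methylation, the share at 0 of 10 reads was 96.7% in both groups (permutation p = 0.507), and the share at a level of 20% or more was 0.134% in rams and 0.139% in pools (p = 0.00012).

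Levels varied less between pools than between rams. For each sample, the distance is the mean over cytosines of the absolute difference between its level and the mean of the other 9 samples of its generation. It was 7.87 to 10.9 points in the rams (median 8.61) and 6.52 to 8.18 points in the pools (median 7.54). The farthest ram, number 23, lay beyond all other samples, and the remaining ranges overlapped slightly. The means were 8.73 ± 0.839 and 7.48 ± 0.6003 points (SD, n = 10 each), lower in the pool for 9 of 10 numbers (permutation p = 0.00032, adjusted p = 0.00112). The exact permutation p was 0.0397 in the treatment line and 0.00794 in the control line. Without the distance of ram 23 the treatment line no longer passed (4 rams against 5 pools, -0.735 points, exact p = 0.0794). Part of each distance is counting error, which differs with depth. With the counting variance subtracted, the mean squared distance was 130 ± 16.6 squared points in the rams and 63.6 ± 12.5 in the pools, a ratio of 0.490 (permutation p = 2e-05), with all pools below all rams.

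Taken per cytosine, the variance between samples beyond counting error averaged 117 squared points over rams and 57.3 over pools. The ratio of 0.490 was 0.508 without number 23 in either generation. It was 0.438 in the treatment line (120 to 52.7 squared points over 5 samples each) and 0.511 in the control line (122 to 62.4). On each of the 26 autosomes the ratio was under 1, from 0.431 on chromosome 24 to 0.603 on chromosome 23. Autosomes together had a ratio of 0.492, the X chromosome 0.431 and the unplaced scaffolds 0.436. By level, the ratio was closest to 1 (0.713) in the class under 10%, where the variance was 56.8 squared points in rams and 40.5 in pools. It lay between 0.472 and 0.578 in the other 9 classes, and the variance was largest at levels of 50% to 60%, at 290 squared points in rams and 139 in pools.

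**Figure D2:**
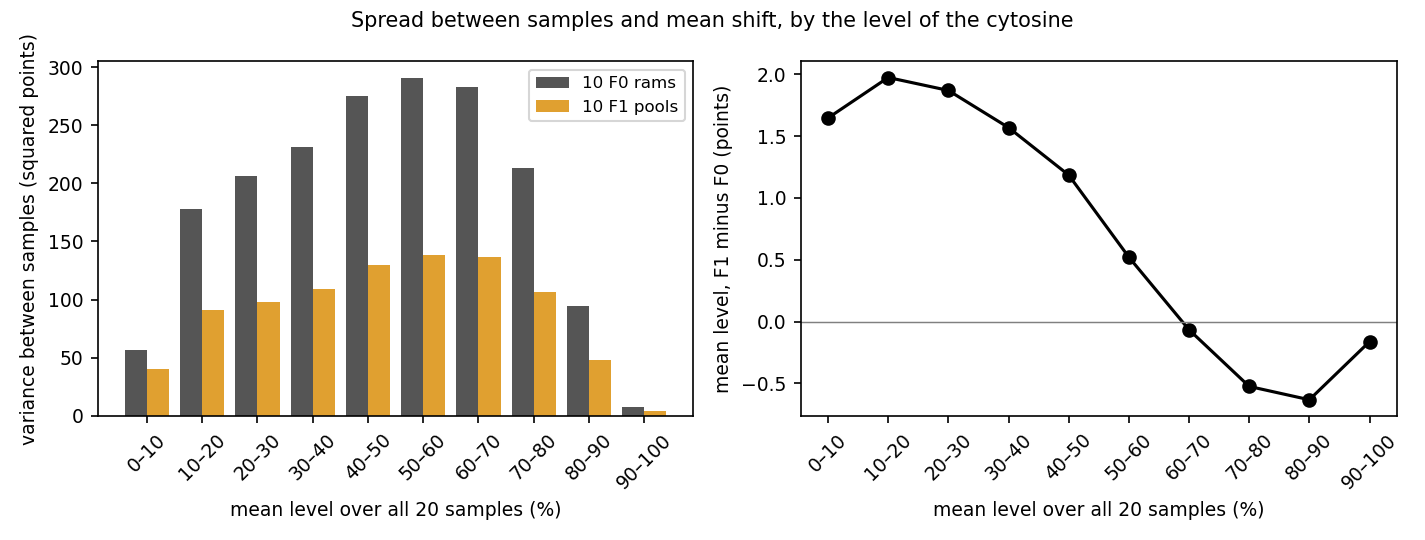
Left, variance of the level between the 10 F0 rams and between the 10 F1 pools after subtraction of the counting variance (bars, squared points), by the mean level of the cytosine over all 20 samples (x axis, percent). Right, mean level in F1 minus F0 (points) in the same classes. The bars of the pools are lower in every class, and the shift is above 0 up to a level of 60% and below 0 from there on. The classes use the values of both groups, so that the sort takes part in the sign of the shift.

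Cytosines with both a low and a high sample were more numerous among rams than among pools, whose values are mixtures of sons and do not show single animals. At 9714 cytosines (4.18%) at least 1 ram had a level of at most 10% and at least 1 ram a level of at least 90%. At 1385 (0.597%) this held for the pools, and 927 did so in both generations. The ratio of the counts was 7.01. It was 7.24 without number 23, with 9118 and 1259 cytosines, and 10.7 among cytosines with 20 reads in every sample, with 1993 and 187. At the 9714 cytosines picked by the rams, 22.8% of ram values were at most 10%, 50.6% lay between and 26.6% were at least 90%. Of the pool values at the same cytosines, which took no part in the choice, 6.22% were at most 10%, 83.6% lay between and 10.2% were at least 90%. The choice itself raises the ram shares at both ends. At the 1385 cytosines picked by the pools, 13.1% of pool values were at most 10% and 15.1% at least 90%. Of the ram values there, 21.6% and 24.6% were. Any sample at most 10% was found at 33073 cytosines (14.2%) in rams and at 22642 (9.75%) in pools, and all 10 samples at most 10% at 2226 and 1454. All 10 samples at least 90% were found at 30891 cytosines (13.3%) in rams and 31367 (13.5%) in pools.

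The F2 rams, grandsons that were sequenced individually and fed the control diet, gave a further set of individual samples at 72847 cytosines listed in all 3 generations. Over these, the share at 0 of 10 reads was 5.30% ± 0.604 in 10 F0 rams, 3.21% ± 0.494 in 10 F1 pools and 5.35% ± 0.844 in 20 F2 rams (SD). Pools and F2 rams differed (permutation p = 2e-05, adjusted over 10 comparisons 5e-05). The squared distance beyond counting error was 133 ± 22.9, 65.4 ± 12.9 and 183 ± 67.2 squared points in the same order, and its F1 to F2 ratio was 0.358 (adjusted permutation p = 5e-05). The F2 rams also had more cytosines at 10 of 10 reads, 35.7% ± 7.84 against 29.6% ± 3.33 in the pools (adjusted p = 0.0432), and fewer at 4 to 6 reads, 16.2% ± 2.06 against 17.9% ± 1.19 (adjusted p = 0.0354), with 31.9% ± 4.76 and 16.9% ± 1.77 in the F0 rams. Their mean level was 72.5% ± 1.10, against 71.1% ± 1.17 in the pools (adjusted p = 0.00956) and 70.9% ± 0.921 in the F0 rams. The F2 rams came 2 to a sire number and are not independent of each other. With their mean per number set against the 10 pools, all 5 measures still differed (adjusted permutation p of 0.0146 or less), as they did with the number as a block (adjusted exact sign-flip p of 0.0254 or less). In the share at 0 of 10 reads the F2 rams (3.82% to 6.26%) and the pools (2.55% to 3.93%) overlapped slightly.

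Single cytosines were tested with a logistic regression of methylated and unmethylated reads, with an overdispersion term that lets the spread between samples enter. With an adjusted p of at most 0.01 and a difference of at least 20 points, 0 of 232168 cytosines were called (0.0%), with 9996 (4.31%) at an unadjusted p under 0.05. limma on the levels called 0, with 10841 at an unadjusted p under 0.05. With the number as a block, the logistic regression and limma called 0 as well, with 13170 and 17591 at an unadjusted p under 0.05. A likelihood-ratio test without overdispersion, in which reads of 1 sample count as independent, called 938 (0.404%), 547 higher and 391 lower in F1. In each line alone the overdispersed test called 0, with 5844 cytosines at an unadjusted p under 0.05 in the treatment line and 6641 in the control line. The interaction of generation and line was called at 0 cytosines by the overdispersed test and by limma, with 6170 and 6314 at an unadjusted p under 0.05, and at 765 by the likelihood-ratio test. In simulated data, decreases of 40 points were put in, with the same spread in both generations. The overdispersed test of the generations recovered 81.5% of them and limma 85.5%, with no false call. Smaller or upward shifts were not simulated, nor were the tests of each line alone or with the block. The counts of 0 do not show that such shifts were missing. The overdispersed interaction test recovered no changed cytosine on simulated data, so that its count of 0 says nothing. The likelihood-ratio test called unchanged cytosines on simulated data, and its counts are not read as shifts.

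An adjusted p of at most 0.05 in the overdispersed test was reached by 17 cytosines (0.00732%), whatever their size of shift. With the number as a block in the same test the count was 1, and limma gave 1 without and 1 with the block. The adjusted p-values below are those without the block. All 17 had 0 methylated reads in all 10 rams, over 169 to 978 ram reads, and were methylated in 7 or more pools. Rams without any methylated read add nothing to the overdispersion term but still count in its degrees of freedom. Cytosines of this kind therefore pass more easily, and the shared trait is not read as a result. The shifts of the 17 were 7.75 to 24.5 points (median 16.6), and 3 of them reached 20 points. At chromosome 15, position 39232937, minus strand, the rams had 0 of 344 reads methylated, which allows a level of up to 0.872% by counting error. The pools had 8.57% to 28.9% (median 13.7%), and all 10 were above 0 (adjusted p = 0.00315). At chromosome 15, position 39961204, plus strand, the rams had 0 of 418 reads, a level of up to 0.718%, and the pools 9.09% to 22.6% (median 13.3%, adjusted p = 0.00315). At chromosome 4, position 92294917, minus strand, the rams had 0 of 389 reads and the pools 2.56% to 34.2% (median 14.2%, adjusted p = 0.0115). At chromosome 1, position 9714172, plus strand, the rams had 0 of 422 reads, 2 pools (10 and 12) were at 0% and the other 8 at 7.55% to 26.9% (adjusted p = 0.00653). Positions are those of Oar_rambouillet_v1.0, and these 4 cytosines are named for the order of their p or because their groups do not overlap.

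Complete separation of rams and pools was found at 6 cytosines (0.00258%). All pools lay above all rams at 4 (0.00172%), namely the chromosome 4 cytosine and both chromosome 15 cytosines above and chromosome 7, position 16660951, minus strand (rams 78.9% to 94.7%, pools 95% to 100%). All rams lay above all pools at 2 (0.000861%). At chromosome 10, position 43902328, plus strand, the rams had 61.5% to 89.5% (median 73.2%) and the pools 33.3% to 60.9% (median 48.7%). At chromosome 1, position 165352445, minus strand, they had 78.0% to 95% (median 83.3%) and 55.2% to 76.9% (median 69.8%). These last 2 and the chromosome 7 cytosine did not pass an adjusted p of 0.05 (0.249, 0.370 and 1).

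Cytosines without any methylated read in 1 generation were read in the other, in both directions. In all 10 rams, 1156 cytosines (0.498%) had 0 methylated reads, and in all 10 pools 0.217% had none, fewer by a ratio of 2.29, with 361 in both sets. At the 1156, the pools averaged 2.80% (median 1.23%), 227 cytosines reached 5% and 73 reached 10%, with 24.5% the highest. At those without a methylated read in all 10 pools, the rams averaged 0.203% (median 0%), none reached 5%, and the highest was 4.37%. These choices are not equally strict, because the pools together held sperm of more animals than the rams. The difference between the sets is therefore not read as a gain of methylation. Taken by sample, the 10 pools had 1.81% to 3.36% (median 2.87%) at the cytosines without methylation in rams, and the 10 rams had 0.118% to 0.279% (median 0.171%) at those without methylation in pools. Median read totals behind a cytosine were close, 246 in the rams for the first set and 243.5 in the pools for the second. The counts were 1236 and 549 without number 23, and 229 and 92 with 20 reads in every sample. At full methylation the numbers were alike, with 46 cytosines at 100% in all rams and 47 in all pools, of which 7 and 3 were 5 points or more lower in the other generation.

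Between the lines, which share no sample but hold the twins of each other's rams, the shifts of single cytosines went weakly together, as a description. Rams of consecutive numbers, which are in different lines, resembled each other more than other rams did (values below), so that the lines are not independent. The Pearson r of the treatment and control shifts was 0.212 over 232168 cytosines, which are not independent points and draw on the same libraries. A shift of at least 20 points was seen at 2888 cytosines in the treatment line (1.24%), 1700 of them higher in F1, and at 2440 in the control line (1.05%), 1298 of them higher in F1. Both lines shifted that far in the same direction at 306 cytosines (0.132%), which is 10.6% of the treatment list and 12.5% of the control list, and in opposite directions at 23. Of the 306, 181 were higher and 125 lower in F1, and 49 had 20 reads in every sample. An unadjusted p under 0.05 was reached by 198 (0.0853%). The direction followed the level in the rams, which is also part of the shift itself. Of those with a ram mean under 20%, 54 of 54 were higher in F1, and of those from 20% to 40% 83 of 84. From 40% to 60% it was 36 of 62, from 60% to 80% 8 of 69, and above 80% 0 of 37. They were scattered, with another of the 306 within 1000 bases for 21. By chromosome they made up at most 0.316% (6 of 1898 on the X chromosome), and the unplaced scaffolds held 0. At 2335 CG pairs listed on both strands, the ram levels of the strands correlated at r = 0.917 and the shifts at r = 0.169. No strand of these pairs shifted by 20 points, against 0.405% of all shared cytosines.

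**Figure D3:**
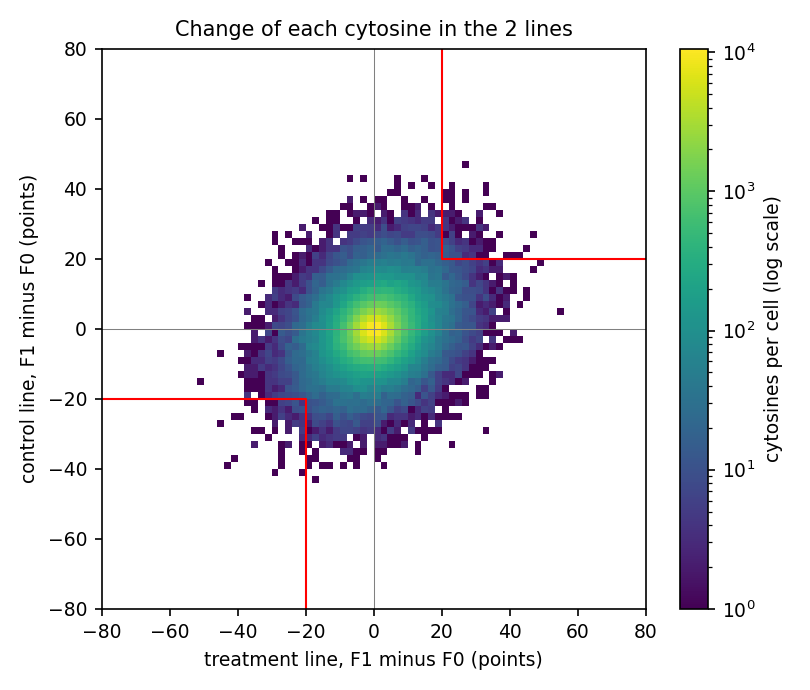
Change of level from F0 rams to F1 pools (points, summed reads) in the treatment line (x axis) and the control line (y axis) for the 232168 shared cytosines, counted in cells of the plane with a log colour scale. The red corners enclose the 306 cytosines that changed by at least 20 points in the same direction in both lines, and most cytosines lie near 0 in both lines.

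The cytosines with the largest differences in both lines, 6 in each direction, were taken from the 198, and none of them passed an adjusted p of 0.05 (0.395 to 1). They show which patterns of single animals lay behind a large shift. At chromosome 2, position 104179550, plus strand, the rams ranged from 0% to 53.3% (median 17.3%) and the pools from 35.7% to 85.2% (median 54.3%). Here 5 rams had no methylated read, the others had 34.6% to 53.3%, and the groups overlapped. The summed reads gave 18.8% and 56.2%, a shift of 37.4 points, with 47.2 in the treatment line and 26.7 in the control line (unadjusted p = 0.00103, adjusted p = 0.769, overdispersed F test, higher in 9 of 10 pairs). At chromosome 18, position 14611704, minus strand, 8 rams were at 0%, and rams 11 and 12 at 51.9% and 60.7%. The pools of the same 2 numbers had the highest values, 88.9% and 97.1%, and the other 8 pools ranged from 4.17% to 53.8%. The shift was 35.3 points (adjusted p = 1). At chromosome 3, position 133646298, plus strand, rams 3, 5 and 4 had 68.2%, 85.2% and 50%, and the other 7 rams 0%. Pools 3 and 5 were the highest at 78.1% and 91.7%, and all 10 pools had 22.2% or more.

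At chromosome 5, position 22982560, minus strand, 6 rams were at 0%, 4 at 38.1% to 65%, and the pools at 20.7% to 77.8% (shift 35.0 points). At chromosome 18, position 53181267, plus strand, the rams spanned 0% to 95.5% and the pools 41.2% to 90.9% (35.3 points). At chromosome X, position 102702490, minus strand, 4 rams were at 0% and 6 at 91.7% to 100%, with none between. Its pools spanned 54.5% to 100%, and the shift of the summed reads was 36.7 points. The median was lower in the pools, 88.5% against 95.8% in the rams, and the pool was higher for 4 numbers and lower for 5. A ram carries 1 X chromosome.

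Cytosines that were lower in F1 showed the reverse picture. At chromosome 1, position 193040271, minus strand, 8 rams had 93.3% to 100% and rams 3 and 24 had 56.5% and 54.5%. The pools had 34.8% to 75% (median 49%), and all 10 pools were below the ram of their number. The summed reads gave 91.3% and 52.5%, a shift of -38.8 points (unadjusted p = 0.000213, adjusted p = 0.395). At chromosome 15, position 38348793, minus strand, the shift was -40.2 points, with rams from 0% to 100% and pools from 0% to 70.6%. At chromosome 8, position 36437217, plus strand, the rams had 51.4% to 100% (median 95.2%) and the pools 9.09% to 75% (median 56.4%). The remaining 3, chromosome 4, position 17248445, plus strand, and chromosome 9, positions 26195685 and 26650405, plus strand, shifted by -34.7, -33.8 and -33.3 points. Ram values there started at 42.9%, 50% and 45.9%, and pool medians were 49%, 41.9% and 59.8%.

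Each pool resembled the ram of its number. Deviations of each sample from the mean of its generation were correlated over cytosines for all 100 combinations of a ram and a pool, as a description. On the autosomes (222034 cytosines) the r of same-numbered samples was 0.349 to 0.520 (median 0.435), and all other combinations lay at or below 0.162. All 10 rams had their highest r with the pool of their number, and the same held from the side of the pools. The combinations of consecutive numbers across lines, such as ram 3 and pool 4, were next, with 0.101 to 0.162, and the remaining ones reached at most 0.0805. Among the rams themselves consecutive numbers correlated at 0.126 to 0.199 and all other ram pairs at 0.0390 or less. Among the pools consecutive numbers had -0.0316 to 0.0235, above all other pool pairs in 4 of 5 cases. At the 34956 autosomal cytosines with an SD of at least 15 points over the 20 samples, same-numbered r was 0.498 to 0.690 (median 0.620). On the X chromosome (1898 cytosines) it was 0.0757 to 0.373 (median 0.206), and 8 of 10 rams had their highest r with their own number. On the unplaced scaffolds (8234) this was so for 4 rams.

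**Figure D4:**
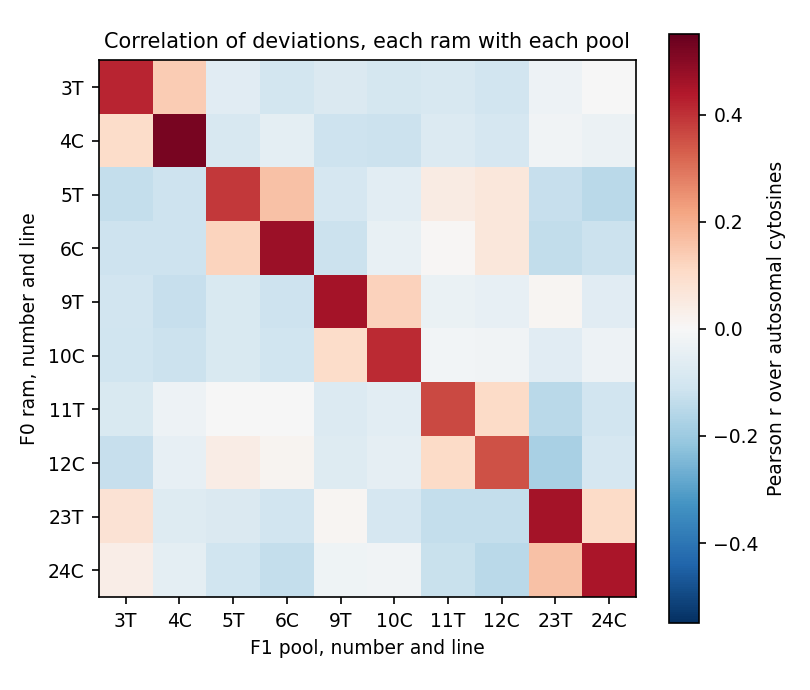
Pearson r of the deviations from the generation mean over 222034 autosomal cytosines, for each F0 ram (rows) with each F1 pool (columns), labelled by number and line (T, treatment; C, control). Numbers are ordered so that consecutive ones stand side by side. The diagonal of same-numbered samples holds 0.349 to 0.520, and no other cell exceeds 0.162.

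The size of the resemblance was measured as the slope of a pool's deviation on its ram's, each taken from the mean of the other 9 samples and with the ram's counting variance removed. On the autosomes the slopes of the 10 numbers lay between 0.444 and 0.4998, with a mean of 0.478 ± 0.0175 (SD, n = 10). The slopes draw on the same deviations as the correlations above, which were used to take the numbers as pairs, and are given as a description with no test against 0. For each point by which a ram deviated, its pool deviated by 0.478 points on average. The slope was 0.479 without number 23, 0.483 with 20 reads in every sample and 0.475 with sample means removed. On the X chromosome the slopes were lower, 0.0861 to 0.475 with a mean of 0.318 ± 0.109. The autosomal slope was above that of the X chromosome for 9 of 10 numbers, by 0.161 ± 0.120 on average (exact sign-flip p = 0.00586), and number 6 was the exception. The pairs were accepted on correlations over mostly autosomal cytosines, which can favour the autosomal side, so that this p is a description as well. The X slopes rest on 1898 cytosines and scattered more. On that chromosome, combinations of consecutive numbers had slopes of -0.0975 to 0.421 and the remaining ones of -0.384 to 0.285, and 8 of 10 rams had their steepest slope with their own pool. Over the unplaced scaffolds the mean was 0.451 ± 0.194, but slopes of consecutive numbers reached 1.27 and those of the remaining combinations 1.19, and 2 of 10 rams were steepest with their own pool. On the autosomes 10 of 10 rams were steepest with their own pool. There the slopes between consecutive numbers were 0.0776 to 0.174 (median 0.144), and those between the remaining combinations were -0.211 to 0.0993 (median -0.0963).

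The same was seen at cytosines where 1 ram stood apart from all other rams, chosen on the rams and read in the pools. These cytosines are part of those behind the correlations, so that their values are a description as well. At 145 autosomal cytosines (6 to 50 for each ram) a ram had at most 10% and the other 9 at least 60%. Its own pool averaged 45.3% to 63.7% over the 10 numbers (median 47.7%) and the other pools 73.1% to 85.9% (median 80.8%). The difference was -30.3 ± 5.85 points (SD, n = 10 numbers), and the own pool was the lowest of the 10 pools for 10 of 10 numbers. At 2486 cytosines (115 to 733 for each ram) a ram had 30% to 60% and the others at least 80%. Its own pool averaged 63.4% to 80.2% (median 68.7%) and the other pools 87.7% to 91.0% (median 89.7%), a difference of -19.6 ± 4.70 points. Ram 23 held 733 of these cytosines and had the smallest difference, -10.1 points (80.2% in its pool, 90.3% in the others). The other 9 numbers had -24.6 to -14.6 points, and the mean without ram 23 was not computed. At 74 cytosines (3 to 16) a ram had at least 60% and the others at most 10%. There its own pool averaged 16.1% to 47.9% (median 30.7%) and the other pools 1.63% to 17.3% (median 9.24%), a difference of 22.8 ± 8.34 points. In the reverse direction, at 813 cytosines where a pool had 30% to 60% and the other pools at least 80%, the ram of its number averaged 55.4% to 78.7% (median 66.2%) and the other rams 88.5% to 95.1%, a difference of -24.4 ± 7.75 points. The low and high kinds chosen on the pools held only 34 and 6 autosomal cytosines. The ram of the number went in the direction of its pool for 9 of 9 and 4 of 4 numbers. It was the farthest ram for 5 of 9 and 3 of 4. The X chromosome held 4, 11 and 4 cytosines of the first 3 kinds, too few to compare.

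**Figure D5:**
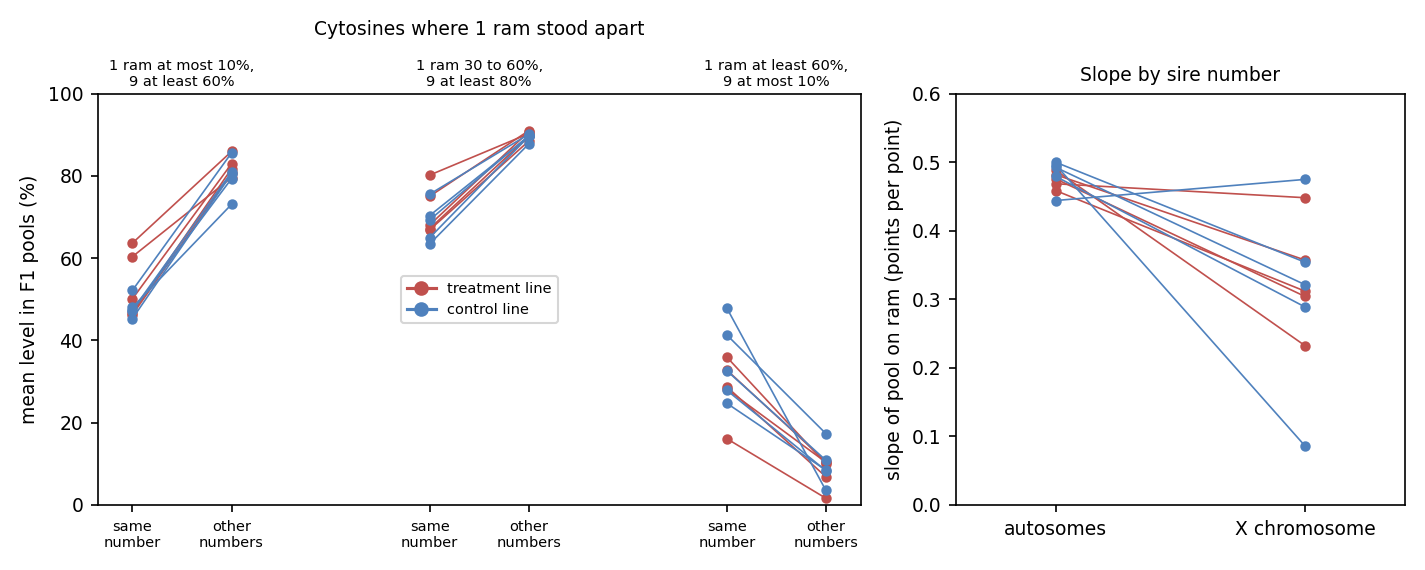
Left, mean level (percent) in the F1 pool of the same number and in the pools of the other numbers, at autosomal cytosines where 1 F0 ram was low, intermediate or high and all other rams were not. Each line is 1 sire number, coloured by line. Right, slope of the pool's deviation on the ram's (points per point) on the autosomes and on the X chromosome. The own pool lies apart from the others in the direction of its ram for 10 of 10 numbers in each set, and 9 of 10 slopes are lower on the X chromosome.

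The study listed genes of growth or male reproduction at cytosines that it called between the diet lines in F0, F1 and F2 alike. Of these, 16 come with a span on this build. That list was chosen by the study on these samples and for another comparison, and it was used here only to show genes by name. Shared cytosines lay in 13 of the 16 spans, 728 in all. Of these, 25 (3.43%) had an unadjusted p under 0.05, against 4.31% over all cytosines, and 0 an adjusted p of at most 0.05. A shift of at least 20 points was seen at 2 of the 728, both in ZBTB20, against 0.405% of all shared cytosines. CTNNA3, which encodes a catenin of cell adhesion, held 250 and went from 76.0% ± 2.64 in the rams to 75.9% ± 1.91 in the pools (SD, n = 10 each). DLG2, a synaptic scaffold protein, held 201 and had 75.0% ± 1.48 and 75.4% ± 1.27. LRRIQ3 had 87.2% and 86.9% over 62 cytosines, and LPAR1, a receptor for lysophosphatidic acid, 90.5% and 89.3% over 36. ZBTB20, a zinc finger repressor, had 89.6% and 88.3% over 35 cytosines, CDH12, a cadherin, 77.5% and 76.7% over 34, and COL19A1, a collagen chain, 80.8% and 81.9% over 21. No gene differed at an unadjusted permutation p under 0.05 over samples. The 10 genes with at least 10 shared cytosines shifted by -1.32 (ZBTB20) to 1.08 points (COL19A1). Among genes with fewer, THOC1 shifted by 4.84 points over 9 cytosines (unadjusted permutation p = 0.0766, adjusted p = 0.892). CATSPER3 shifted by -2.74 points over 3 and STYK1 by -0.868 over 8. In all 10 genes with at least 10 shared cytosines the variance between samples was lower in the pools. The ratios were 0.297 (COL19A1) to 0.671 (STK32B) with a median of 0.495, next to 0.490 over all shared cytosines.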

How the data were processed

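Sperm DNA of 10 F0 rams and 10 F1 pools was bisulfite-sequenced. Per the study's methods and the labels, the authors trimmed reads with Trim Galore, aligned them with Bismark and Bowtie2 to Oar_rambouillet_v1.0, removed duplicates, and listed a cytosine where each sample of its generation had 10 or more reads. The deposited values are read counts (coverage and methylated reads per cytosine and sample), without normalization. The 60 columns of unmethylated reads were not used. Cytosines were joined by chromosome, position and strand. Sample measures were compared by two-sided permutation tests (100000 resamples, exact for 5 against 5). Cytosines were tested by logistic regression with an overdispersed F test and Benjamini-Hochberg adjustment over all 232168, with a likelihood-ratio test and limma 3.58.1 (R 4.3.3) as alternatives. The study's thresholds (20 points, 0.01) were used. Other steps used Python 3.11.15, NumPy 2.4.6, SciPy 1.17.1 and pandas 2.3.3, and were tested on simulated data, where the overdispersed interaction test recovered no change and the likelihood-ratio test made false calls. Intervals and limits from counts cover counting error only.

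Same-numbered rams and pools correlated at 0.344 to 0.506 over all cytosines, each of the 10 pairs over 0.1, and numbers were therefore taken to pair samples. The pairing comes from these correlations and the shared numbers. Named cytosines were the 6 per direction with the largest shift of summed reads, at least 20 points in both lines, with an unadjusted p under 0.05 because no cytosine was called, 1 per 1000 bases. Cytosines with an adjusted p of at most 0.05 or with separate groups, the zero sets, slopes, and CHG tables were added after values were seen. The cytosines, measures and lists were chosen with earlier results of these data known. Imprinted gene lists and stretches of called cytosines were not analysed here.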

Additional observations from a re-analysis of the deposited data

Results flagged for a closer look

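By Dixon's test of the gap to the nearest sample, 4 values stood apart from the rest of their group, all of ram 23 of the treatment line, out of 42 groups of 5 or 10 samples tested. Chance gives about 1 in 20 groups. Its share of cytosines at 4 to 6 of 10 reads was 19.3%, against 14.3% to 16.7% in the other 9 rams, and its share at 10 of 10 reads was 22.2%, against 30.7% to 39.4%. Its distance from the other rams was 10.9 points, against 7.87 to 9.15 points, and the same 10.9 points stood apart among the 5 treatment rams, whose other values were 7.87 to 8.65 points. This distance includes counting error, and ram 23 had the fewest reads of the rams (5816730, median coverage 20). With the counting variance subtracted, its squared distance was 164 squared points, against 104 to 145 in the other 9 rams. Its share at 0 of 10 reads was 4.33%, the lowest of the rams and still above all pools. Its pool did not stand apart in these measures.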

How the results depend on the processing

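Of 210 alternative values, 190 were counted as unchanged. For values with a p this meant the same direction and the same side of the threshold. For counts and ratios it meant a similar size, and for correlations and slopes a move of less than 1 SD. The difference in the share at 0 of 10 reads was -2.08 to -1.97 points under other settings and -2.06 to -1.93 points when each sample was left out in turn, and the distance differed by -1.40 to -0.954 points in the latter. In the treatment line alone the distance lost its call without ram 23 (exact p = 0.0794). The difference in the share at 4 to 6 of 10 reads, 0.887 points, passed unadjusted with the replicate block (exact sign-flip p = 0.0293, adjusted p = 0.0513), and on the levels as deposited, without drawing 10 reads, it was 0.0394 points (permutation p = 0.923). The block also took the cytosines at an adjusted p of at most 0.05 from 17 to 1 and let the share at 1 to 3 of 10 reads pass (adjusted p = 0.00911). It changed no other call among the 7 sample measures and the counts called at 0.01 and 20 points. When each sample was left out in turn it ranged from 0.716 to 1.27 points and passed without ram 23 alone, and the difference at 10 of 10 reads ranged from -3.43 to -1.52 points and passed without ram 23 alone. The mean level differed by -0.0154 to 0.382 points when each sample was left out, by 0.694 points on the methylated share of summed reads (permutation p = 0.380), and turned without F1 control pool 24 (-0.0154 points, permutation p = 0.974). The likelihood-ratio test without overdispersion called 938 cytosines, 304 of them in both lines, and 765 for the interaction, where the overdispersed test called 0. Its construction counts reads of 1 sample as independent. Leaving out 1 sample gave 0 to 1 called cytosines, and 1 without ram 5, 9 or 10 or pool 9, 11, 23 or 10, of which 0 to 1 were in both lines. The median same-numbered r was 0.620 at autosomal cytosines with an SD of at least 15 points. The low-and-high ratio was 10.7 with 20 reads in every sample. The cause of these changes was not tested. The squared distance with counting variance subtracted, chosen after seeing the data, differed by -66.2 squared points. Depth limits levels of single cytosines, since 25.7% of ram values and 26.2% of pool values rest on fewer than 20 reads.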

Other observations

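Of the cytosines without a methylated read in any of the 10 rams, 338 were also listed for the F2 rams. They averaged 2.78% in the F1 pools and 4.90% in the 20 F2 rams. Of the 64 that reached 5% in the pools, 57 also did so in the F2 rams, against 60 of the 274 that did not. Over the 338 cytosines, which are not independent, the F1 and F2 levels had r = 0.813 and rho = 0.779. In single F2 rams the levels varied by cytosine, and the following were picked after their values were seen. At chromosome 15, position 39961204, plus strand, 12 F2 rams were at 0%, 7 between 10% and 90% and 1 at 91.7%, where the pools had 9.09% to 22.6%. At chromosome 4, position 92294917, minus strand, 8 F2 rams were at 0%, 8 between 10% and 90% and 4 at 90% or more. At chromosome 3, position 131682266, plus strand, 15 F2 rams were at 0% and the highest at 47.8%, and at chromosome 21, position 28998114, and chromosome 22, position 19069457, both on the minus strand, the highest were at 40.7% and 40%. At chromosome 8, position 36437217, plus strand, where F0 rams had 51.4% to 100% and pools 9.09% to 75%, 4 F2 rams were at 0% and 3 at 90% or more.

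The slope on the F0 ram was also taken for the 2 F2 rams that carry its number, over 65712 autosomal cytosines. It was 0.480 ± 0.0172 for the pools and 0.254 ± 0.108 for the mean of the F2 rams (SD, n = 10 numbers), with 0.0494 to 0.489 in single numbers. The F1 slope was the higher of both for 10 of 10 numbers, by 0.226 ± 0.104 (exact sign-flip p = 0.00195). The pairs were accepted on correlations of rams and pools, which can favour the F1 side, so that this p is a description.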
